A study of Mus musculus with 14 samples.

Results

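The D cyclins, their kinases and the CDK inhibitors were taken as 10 genes: Ccnd1, Ccnd2, Ccnd3, Cdk4, Cdk6, Cdkn1a, Cdkn1b, Cdkn1c, Cdkn2a and Cdkn2c. The data on them were the peaks that overlapped the span of one of these genes, extended by 5 kb on each side, in the GRCm38 mouse genome. Of 170889 peaks on assembled chromosomes in 12 lists, 226 did so, and the 10 genes were set against 21883 protein-coding genes with the same window. The farthest peak inside a window lay 4010 bp from the span, at Cdkn1c, and the nearest peak outside lay 5532 bp from it, at Cdkn1b.

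D-type cyclins are the cyclins through which growth factor signals reach the cell cycle. They bind CDK4 or CDK6, and the complex phosphorylates the retinoblastoma protein, which frees E2F factors to start DNA replication. INK4 inhibitors bind the kinases directly, while CIP/KIP inhibitors bind cyclin and kinase complexes. In growth plate cartilage, dividing chondrocytes leave the cell cycle as they enlarge, and RUNX2, a runt-domain transcription factor, is required for that maturation.

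H3K4me3, a histone modification found at active promoters, and RUNX2 were mapped by chromatin immunoprecipitation with sequencing in ATDC5, a mouse chondrogenic line that the labels derive from a teratocarcinoma. Fixed, sonicated chromatin was taken on day 0, and on days 3 and 10 from cells plated as dense droplets and kept in medium with β-glycerophosphate and L-ascorbate-2-phosphate for differentiation. The labels do not make clear whether day 0 cells were also plated as droplets. Every sample title names ATDC5, although the cell type labels carry differing AT numbers, which are not explained. Nothing in the labels names a change of genotype, so all groups were taken as the same line, differing by day and antibody. Each antibody had 2 libraries per day, called here library 1 and library 2 after the labels. The 2 input libraries were not analysed here. Separate cultures are not stated for the paired libraries, so that a spread or p between them may be technical.

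The lists differed widely in length. For H3K4me3, the lists of library 1 had 13765, 28653 and 15219 peaks on days 0, 3 and 10, and those of library 2 had 20863, 26781 and 29022. For RUNX2, the lists of day 3 had 19319 and 16859 peaks, and those of days 0 and 10 had between 97 and 108. The number of reads behind each list is unknown here, so a gene without a peak had none called in that library, which does not show absence of the mark. Among genes that mark cell types, 5 of 8 chondrocyte genes had H3K4me3 in all 6 lists and none lacked it in every list, and all 3 skeletal muscle genes lacked it in every list. Genes of other cell types were marked too: none of 3 blood cell genes lacked H3K4me3 in every list, 3 of 3 had RUNX2 in both day 3 libraries, and 2 of 3 pluripotent cell genes had H3K4me3 in 5 lists. Of the hypertrophic chondrocyte genes, Runx2 alone of 5 was marked in all 6 lists. Ihh and Spp1 were each marked in the 4 lists of days 3 and 10, Col10a1 in 1 list, and Mmp13, which encodes a collagenase, in none. Of 3 endothelial and 3 adipocyte genes, 0 were marked in all 6 lists, and 1 and 2 of them lacked H3K4me3 in every list. The adipocyte gene Plin1 was marked in 5 lists and had RUNX2 in both day 3 libraries. Of 3 neuronal genes, 2 were marked in all 6 lists.

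The pair of RUNX2 libraries of day 3 stood apart in how closely they matched. Where a stretch had a single peak in each, the summits lay on the same base in 56.6% of 15877 stretches and within 10 bp in 92.9%. In the other 27 pairs of lists with at least 1000 such stretches, at most 0.758% of summits lay on the same base and at most 11% within 10 bp. Whether the RUNX2 pair shares reads or chromatin was not tested, so agreement between them is not counted below as independent replication. RUNX2 covered lengths of day 3 are therefore given for each library.

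All 10 genes carried H3K4me3 and, on day 3, RUNX2. A peak in both libraries of the day was found for H3K4me3 at 9 of 10 genes on day 0 (54.8% of all genes), at 10 on day 3 (64.3%) and at 10 on day 10 (59.4%). The gene short of the call on day 0 was Cdkn1c, which encodes p57, with a peak in library 2 alone. The same 9 genes were marked in all 6 lists, as were 54.5% of all genes. No gene of the set could gain an H3K4me3 peak by day 3, since none lacked one in both day 0 libraries (8.59% of the genes that could did), and 0 of 9 lost one (0.0167%). On day 10 likewise none could gain one (0.148% of those that could against day 3, 2.94% against day 0), while 0 of 10 lost one against day 3 (0.895%) and 0 of 9 against day 0 (0.0167%). RUNX2 had a peak at 0 of 10 genes on day 0 (0.0274% of all genes), at 10 of 10 on day 3 in each library (61.1% in both) and at 0 of 10 on day 10 (0.0183%). Thus 10 of 10 genes gained a RUNX2 peak by day 3 (61.0% of the genes that had none on day 0), and 10 of 10 lost it by day 10 (99.9% of those marked on day 3). RUNX2 covered length was likewise higher without overlap on day 3 than on day 0 at 10 of 10 (97.6% of genes with a peak on either day), and lower on day 10 than on day 3 at 10 of 10 (97.6%). These gains, losses and differences restate the day 3 marking, since the RUNX2 lists of days 0 and 10 held at most 108 peaks each. Among genes marked by H3K4me3 on day 3, 94.4% were also marked by RUNX2, so 10 of 10 is close to what held for marked genes at large.

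The amount of each gene's window under peaks, its covered length, can be set side by side across lists, although it moves with how much was called in a list. H3K4me3 covered more of the window in both day 3 libraries than in either day 0 library at 9 of 10 genes, with Ccnd1 the exception, and so did 75.4% of the genes with an H3K4me3 peak on either day. It covered less at 0 of 10 (0.0720% of the same genes). Both H3K4me3 lists of day 3 were longer than both of day 0 (28653 and 26781 peaks beside 13765 and 20863). List length and day therefore cannot be told apart for this step at any gene described below. The mean covered length on day 3 was 1.15 to 5.09 times that on day 0, with a median ratio of 1.55 beside 1.50 over all genes with a peak on both days. RefSeq promoter windows of 300 bases at the annotated starts were matched for 7 of the genes. Of 11 such windows, 7 were under H3K4me3 in both libraries of day 0 (30.7% of all windows), 10 on day 3 (39.6%) and 9 on day 10 (36.7%), and 7 were under RUNX2 in both libraries of day 3 (36.6%). An exact two-sided permutation test of 2 against 2 libraries cannot give a p below 0.333, so no such difference could pass 0.05.

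The step to day 10 went opposite ways in the 2 libraries. In library 1, 10 of 10 genes had a shorter covered length on day 10 than on day 3, and 0.57% of all genes with a peak in both lists were longer. In library 2, 10 of 10 were longer on day 10, as were 77.0% of all genes with a peak in both lists. With both libraries considered, no gene of the set was higher (0.432% of genes with a peak on either day) or lower (19.2%) without overlap, at a median ratio of 0.86 beside 0.83 over all genes with a peak on both days. Against day 0, day 10 was higher without overlap at 3 of 10 genes, Cdk6, Cdkn1a and Cdkn1c (21.1% of genes with a peak on either day), and lower at 0 (0.300%). From day 3 to day 10 the H3K4me3 list shortened in library 1 (28653 to 15219 peaks) and lengthened in library 2 (26781 to 29022), as the covered lengths did. Whether list length accounts for them was not tested. Against day 0, the day 10 list was longer in library 1 (15219 beside 13765) and in library 2 (29022 beside 20863). List length and day cannot be told apart for that comparison.

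**Figure D1:**
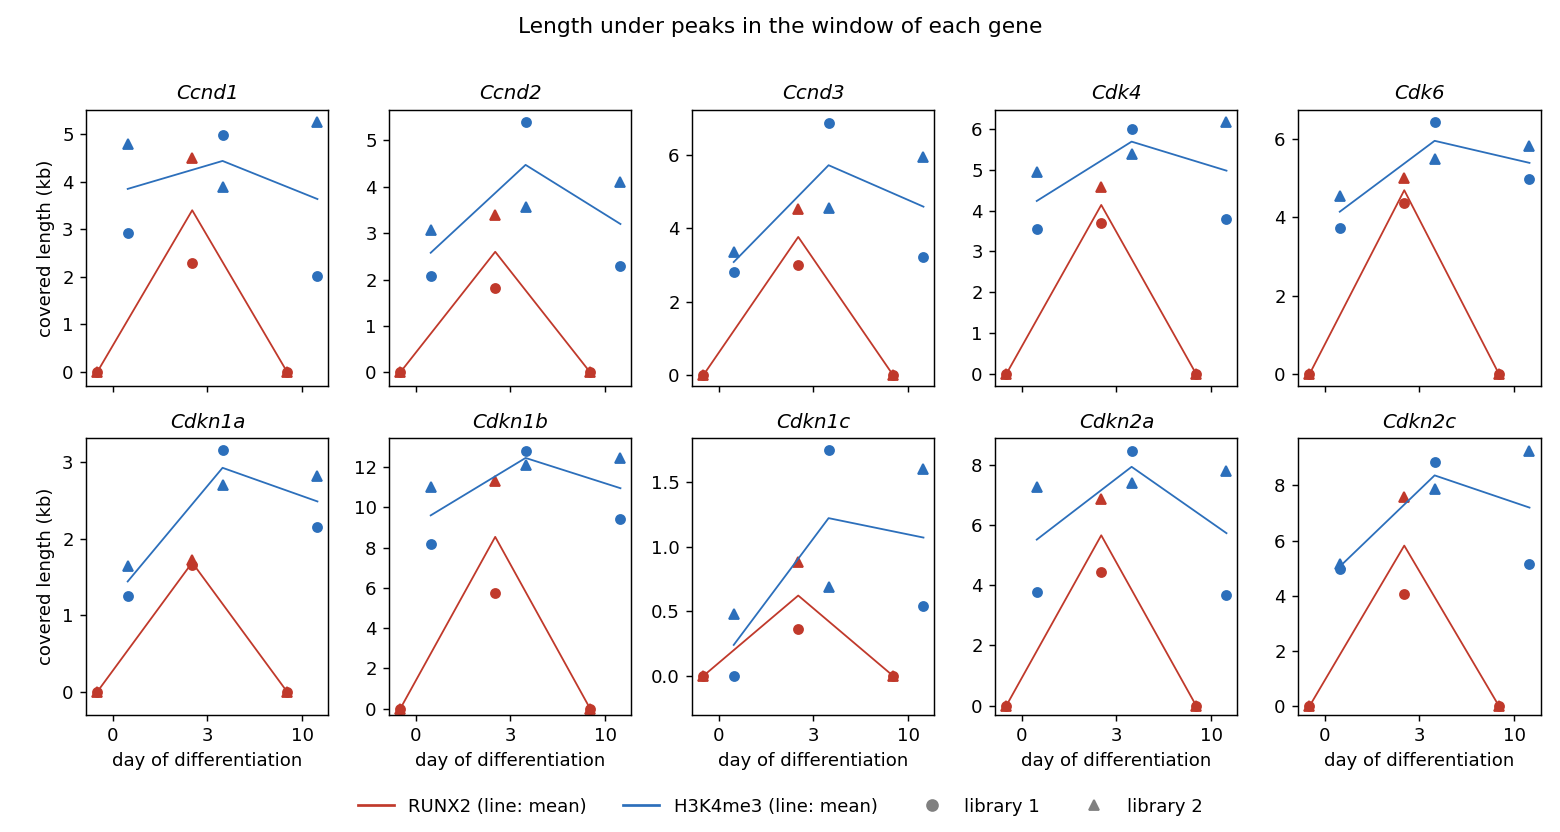
Covered length in kb (y axis) of the window of each of the 10 genes on days 0, 3 and 10 (x axis, evenly spaced), with RUNX2 in red and H3K4me3 in blue. Circles are library 1, triangles library 2 and lines the mean of both: RUNX2 lies at 0 on days 0 and 10 throughout, and on day 10 the H3K4me3 triangle lies above the circle in each panel.

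Among the D cyclins, Ccnd1, Ccnd2 and Ccnd3 encode proteins with the same biochemical role and different patterns of expression. Ccnd1 (chromosome 7, 144929931 to 144939831) carried 2 stretches of peaks, one over an end of its span (144937599 to 144940641) and one just outside it (144940696 to 144943734). RUNX2 on day 3 covered 2298 bp in library 1 and 4509 bp in library 2. H3K4me3 covered 2915 and 4791 bp on day 0, 4995 and 3889 bp on day 3, and 2025 and 5254 bp on day 10. The days overlapped at this gene, and the day 3 mean of 4442 ± 782 bp was within the spread of the day 0 mean of 3853 ± 1326.5 bp (SD, n = 2 each; exact permutation p = 0.667). The outer stretch had no peak in library 1 of day 10, although all other H3K4me3 lists and both RUNX2 lists of day 3 had one. The authors' −log10 q ranks peaks within a list only. By this rank, the best H3K4me3 peak at Ccnd1 stood between the 28.8th and the 67.7th percentile, the lowest range of the 3 cyclin gene windows. In library 2 of day 0 and both day 3 libraries, however, the best peak of the Ccnd3 window lay at the neighbouring gene Taf8. The peak at the proximal Ccnd3 start stood at the 41.3rd percentile in library 2 of day 0. At Ccnd2 the best peak lay in a stretch shared with the non-coding RNA gene 9330179D12Rik.

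Ccnd2 (chromosome 6, 127125162 to 127152188) had its main stretch inside the span, from 127148570 to 127152143. That stretch also holds an end of 9330179D12Rik, a long non-coding RNA gene, and 9 of its 12 peaks had a summit nearer to that gene than to an end of Ccnd2, so the signal cannot be given to either gene alone. RUNX2 covered 1814 bp in library 1 and 3382 bp in library 2 of day 3. H3K4me3 covered 2084 and 3069 bp on day 0, 5389 and 3556 bp on day 3, and 2294 and 4100 bp on day 10. Both day 3 values lay above both day 0 values, at means of 4472.5 ± 1296 and 2576.5 ± 696.5 bp (SD, n = 2 each; exact permutation p = 0.333). A second stretch from 127154124 to 127155359 had an H3K4me3 peak in 5 lists and RUNX2 in library 2 alone.

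Ccnd3 (chromosome 17, 47505051 to 47599689) has 2 annotated starts in the promoter table, and they differed. RefSeq gives promoter windows of 300 bases, 250 before to 50 after each start, in GRCm38.p6. They are shown here because the first one was under H3K4me3 on day 3 and not on day 0. The distal window is chr17:47504801-47505100 and the proximal one is chr17:47593217-47593516, both on the plus strand, and capitals mark a RUNX motif searched as TGTGGT or TGCGGT on both strands.

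Ccnd3 distal start: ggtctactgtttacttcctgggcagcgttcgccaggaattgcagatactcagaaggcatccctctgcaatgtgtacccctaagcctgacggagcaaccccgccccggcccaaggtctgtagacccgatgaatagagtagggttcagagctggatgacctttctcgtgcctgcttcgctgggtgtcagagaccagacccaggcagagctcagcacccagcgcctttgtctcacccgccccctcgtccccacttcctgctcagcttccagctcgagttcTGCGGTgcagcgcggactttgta

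Ccnd3 proximal start: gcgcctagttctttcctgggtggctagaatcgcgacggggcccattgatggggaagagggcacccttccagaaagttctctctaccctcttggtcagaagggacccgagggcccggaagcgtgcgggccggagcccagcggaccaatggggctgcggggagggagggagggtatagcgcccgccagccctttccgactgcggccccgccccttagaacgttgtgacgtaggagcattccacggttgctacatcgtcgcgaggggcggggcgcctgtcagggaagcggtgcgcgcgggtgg

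The distal window was under H3K4me3 for 0 and 0 of 300 bases on day 0, 300 and 300 bases on day 3, and 0 and 260 bases on day 10. RUNX2 covered none of it in library 1 of day 3 and 244 bases in library 2. Its one motif match, TGCGGT from 47505078 to 47505083, lay under the RUNX2 peak of library 2 only, and that peak was weak, with a fold enrichment of 3.10 by the authors' values. The proximal window had no match and was under H3K4me3 in all 6 lists and under RUNX2 in both day 3 libraries, with both summits at 47594174. Over the whole window of the gene, RUNX2 covered 3008 and 4530 bp on day 3. H3K4me3 covered 2803 and 3366 bp on day 0, 6889 and 4561 bp on day 3, and 3227 and 5962 bp on day 10. Day 3 lay above day 0 without overlap, at means of 5725 ± 1646 and 3084.5 ± 398 bp (SD, n = 2 each; exact permutation p = 0.333). Part of that length belongs to a stretch at an end of Taf8, a TFIID subunit gene next to Ccnd3, which had a peak in all 6 H3K4me3 lists and both RUNX2 lists of day 3.

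**Figure D2:**
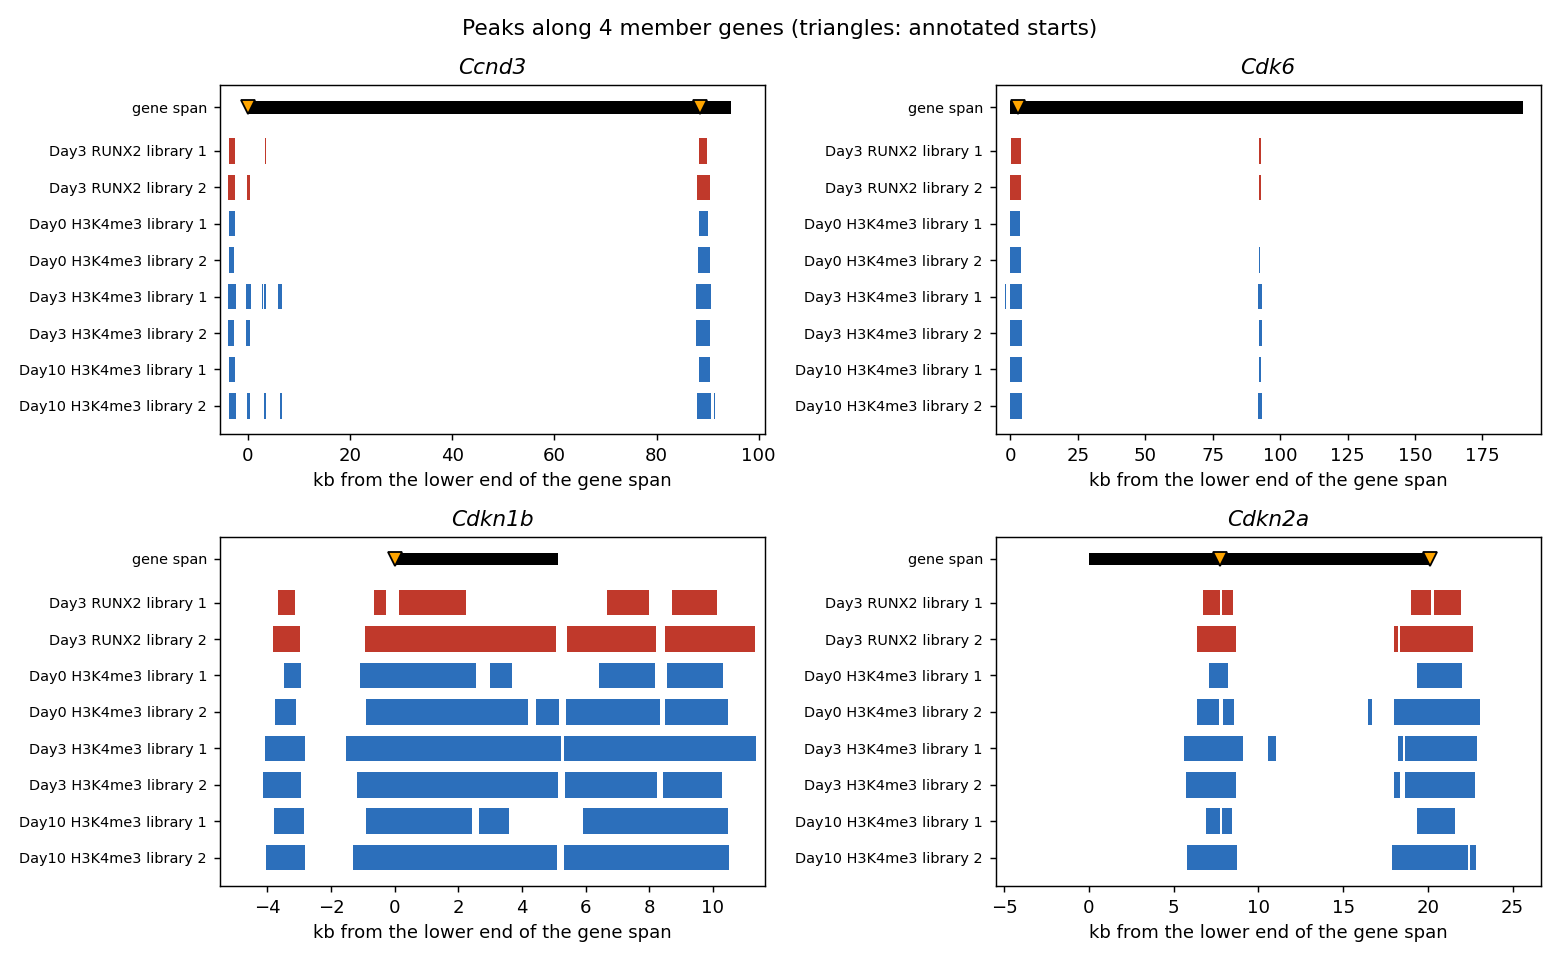
Peaks of the day 3 RUNX2 lists (red) and the H3K4me3 lists (blue) along Ccnd3, Cdk6, Cdkn1b and Cdkn2a, drawn in kb from the lower end of the gene span (x axis), one list per row, with the span in black and annotated starts as triangles. At Ccnd3 the stretch at the distal start is absent on day 0, at Cdk6 a stretch within the gene lies far from the annotated start, and at Cdkn1b the H3K4me3 peaks of both day 3 libraries run over the whole gene.

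Both kinases of the D cyclins had a stretch at their starts in all 6 H3K4me3 lists. Cdk4 (chromosome 10, 127063535 to 127067288) lies in a crowded locus, and its window held 3 stretches, of which the outer ones cover ends of Marchf9, a ubiquitin ligase gene, and of Tspan31 and A730063M14Rik. All 3 stretches had a peak in all 6 H3K4me3 lists and both RUNX2 lists of day 3. RUNX2 covered 3709 and 4571 bp on day 3. H3K4me3 covered 3539 and 4935 bp on day 0, 5994 and 5389 bp on day 3, and 3799 and 6161 bp on day 10, so that day 3 lay above day 0 without overlap (means of 5691.5 ± 428 and 4237 ± 987 bp, SD, n = 2 each; exact permutation p = 0.333). Over the gene span with no extension the difference was 45 bp and the days overlapped (exact permutation p = 1.0), and without library 1 of day 0 it was 756.5 bp, beside 1454.5 bp. The Cdk4 promoter window is shown because it was the only member window with 2 motif matches and because the mark covered more of it on the later days. It is chr10:127063285-127063584 on the plus strand, with the matches, read as ACCACA on this strand, in capitals.

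Cdk4: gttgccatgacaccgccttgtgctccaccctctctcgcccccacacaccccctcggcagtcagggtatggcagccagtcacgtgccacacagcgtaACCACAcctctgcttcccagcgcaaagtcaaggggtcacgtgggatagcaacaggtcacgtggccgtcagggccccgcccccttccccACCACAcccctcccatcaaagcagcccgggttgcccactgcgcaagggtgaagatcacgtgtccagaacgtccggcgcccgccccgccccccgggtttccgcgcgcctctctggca

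The matches began 154 and 66 bases before the start. Neither lay under a RUNX2 peak of day 3: the peaks nearest the start covered 24 bases of this window in library 1 and 75 in library 2. H3K4me3 covered 26 and 0 of its 300 bases on day 0, 300 and 122 bases on day 3, and 62 and 155 bases on day 10. Both later days therefore lay above day 0 in this window. Day 0 peaks already lay at or just past its downstream end, beginning at 127063559 in library 1 and at 127063605 in library 2. Of all promoter windows under H3K4me3 in any list of days 0 and 3, 27.0% were likewise covered further in both day 3 libraries than in either of day 0. No such share is given for day 10. Within the member windows, 3 of 10 were so covered, at Cdk4, the second start of Cdkn1a and the distal start of Ccnd3.

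Cdk6 (chromosome 5, 3341004 to 3531008) is the longest gene of the set, at 190005 bp, and carried a wide peak at its start. RUNX2 covered 4368 and 5004 bp of the window on day 3. H3K4me3 covered 3734 and 4544 bp on day 0, 6410 and 5477 bp on day 3, and 4964 and 5800 bp on day 10. Both day 3 and day 10 lay above day 0 without overlap, at means of 5943.5 ± 660 and 5382 ± 591 bp against 4139 ± 573 bp on day 0 (SD, n = 2 each; exact permutation p = 0.333 for both). The widest H3K4me3 peak stood at or above the 98.8th percentile of peak width in every list, and the widest RUNX2 peak was 3641 bp in library 1 and 4323 bp in library 2. The start stretch also holds an end of Gm36470, a long non-coding RNA gene. A second stretch within the gene, from 3432903 to 3434158, lay 89511 bp from the annotated start at its RUNX2 summit, which was base 3433404 in both libraries. There, H3K4me3 covered 0 and 448 bp on day 0, 1203 and 995 bp on day 3, and 699 and 1194 bp on day 10. The nearest end of another gene, that of Gm29868, was 20695 bp away, so the stretch lay at no annotated gene end.

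Among the CIP/KIP inhibitors, Cdkn1c had the shortest covered lengths, Cdkn1a had a single stretch of peaks and Cdkn1b had the longest covered lengths. Cdkn1a (chromosome 17, 29090979 to 29100722) encodes p21, the inhibitor induced by p53. All its peaks lay in 1 stretch, from 29093256 to 29096411, at the second of its annotated starts. RUNX2 covered 1662 bp in library 1 and 1717 bp in library 2 of day 3, the smallest difference in bp of the pair among the 10 genes. H3K4me3 covered 1246 and 1638 bp on day 0, 3156 and 2702 bp on day 3, and 2157 and 2821 bp on day 10. Day 3 and day 10 both lay above day 0 without overlap, at means of 2929 ± 321 and 2489 ± 469.5 bp against 1442 ± 277 bp on day 0 (SD, n = 2 each; exact permutation p = 0.333 for both). The windows of both starts are shown because one was in no list and the other was reached by H3K4me3 after day 0 only. The first is chr17:29090729-29091028 and the second chr17:29093519-29093818, on the plus strand, and neither holds a motif match.

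Cdkn1a first start: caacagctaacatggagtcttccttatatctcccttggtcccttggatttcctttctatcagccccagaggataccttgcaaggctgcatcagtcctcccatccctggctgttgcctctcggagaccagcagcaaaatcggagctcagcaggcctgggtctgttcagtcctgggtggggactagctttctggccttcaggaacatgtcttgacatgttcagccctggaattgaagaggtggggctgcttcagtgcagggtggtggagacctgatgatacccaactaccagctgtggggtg

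Cdkn1a second start: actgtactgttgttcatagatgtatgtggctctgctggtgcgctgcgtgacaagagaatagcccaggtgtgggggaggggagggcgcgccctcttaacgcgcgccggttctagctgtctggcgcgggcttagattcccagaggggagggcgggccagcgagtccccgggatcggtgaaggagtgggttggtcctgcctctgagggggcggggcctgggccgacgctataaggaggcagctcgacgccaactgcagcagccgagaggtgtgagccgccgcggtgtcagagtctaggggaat

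The first window had 0 bases under a peak in any of the 12 lists. The second had 0 and 0 bases under H3K4me3 on day 0, 300 and 300 bases on day 3, and 196 and 300 bases on day 10. Of the 3 member windows with no H3K4me3 in either day 0 library, 2 were under it in both day 3 libraries. They were this one and the distal start of Ccnd3. Of all windows that could be, 4.32% were. That share takes windows whatever the marking of their gene, while both these genes had H3K4me3 in all 6 lists, so the bases are unlike. At Cdkn1a the day 0 peaks began just past the window, which ends at 29093818. RUNX2 covered none of either Cdkn1a window, and its peaks began downstream of the start, at 29093839 in library 1 and at 29093829 in library 2. The RUNX2 summits were at 29094983 and 29094993, and the day 0 H3K4me3 peaks, which began at 29093977 and 29093865, lay over the same bases.

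**Figure D3:**
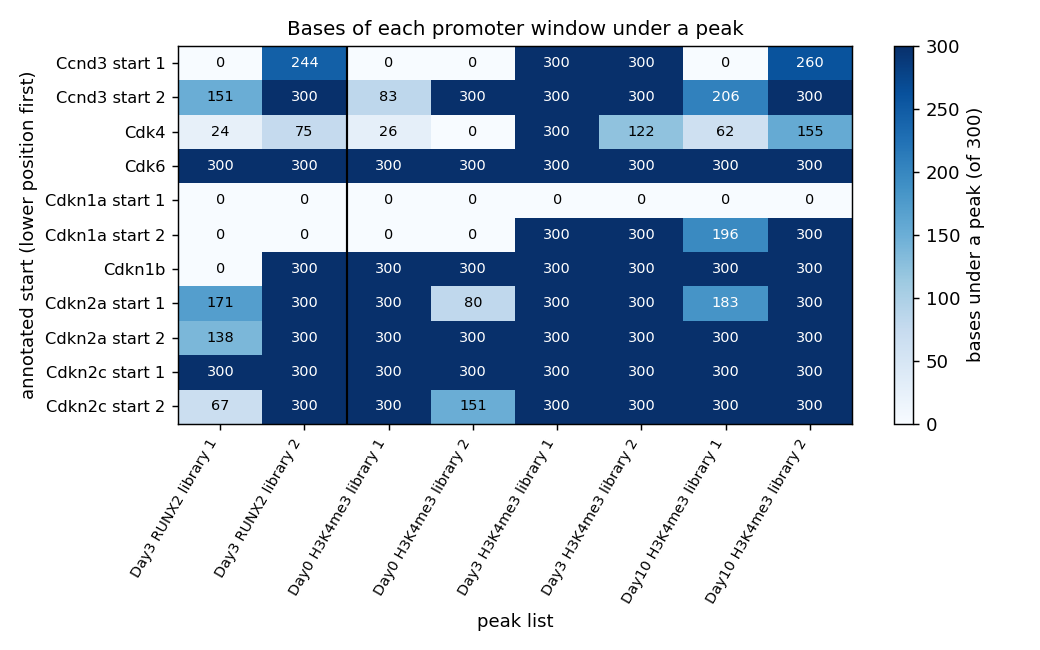
Bases under a peak (colour and number, of 300) in each of the 11 annotated promoter windows of 7 genes (rows, lower position first where a gene has 2 starts) in each list (columns), RUNX2 of day 3 left of H3K4me3. The first Cdkn1a start is at 0 in every column, and the Cdk4 window, the second Cdkn1a window and the first Ccnd3 window have more bases under H3K4me3 on day 3 than on day 0.

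Cdkn1b (chromosome 6, 134920401 to 134925525) encodes p27, which accumulates in cells that leave the cell cycle, and it had the longest covered length of the set in every H3K4me3 list. RUNX2 covered 5758 bp in library 1 and 11300 bp in library 2 of day 3. H3K4me3 covered 8183 and 11009 bp on day 0, 12780 and 12116 bp on day 3, and 9431 and 12459 bp on day 10. Day 3 lay above day 0 without overlap (means of 12448 ± 469.5 and 9596 ± 1998 bp, SD, n = 2 each; exact permutation p = 0.333), and day 10 did not. In library 1 of day 3 a single H3K4me3 peak of 6742 bp ran from 134918878 to 134925619, over both ends of the gene, and stood at the 99.7th percentile of width in its list. The RUNX2 peak of library 2 over the gene was 6002 bp wide, at the 99.8th percentile of width and the 99.5th of −log10 q. In library 1 the same place held shorter peaks of 360 and 2123 bp, with the summit of the longer one, 134921181, on the same base as in library 2. The window also held a stretch downstream that covers an end of Lockd, a long non-coding RNA gene, and a stretch upstream from 134916251 to 134917573 that holds no gene end. Both were in all 6 H3K4me3 lists and both RUNX2 lists of day 3.

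Cdkn1c (chromosome 7, 143458339 to 143461059) encodes p57, an imprinted inhibitor that is required for normal cartilage development in mice. It was the weakest gene of the set. H3K4me3 covered 0 and 480 bp on day 0, 1752 and 692 bp on day 3, and 544 and 1599 bp on day 10. Day 3 and day 10 lay above day 0 without overlap, at means of 1222 ± 749.5 and 1071.5 ± 746 bp against 240 ± 339 bp on day 0 (SD, n = 2 each; exact permutation p = 0.333 for both), but each rests on few peaks. The day 3 minus day 0 difference of 982 bp was 157.5 bp over the gene span with no extension (exact permutation p = 0.667) and 0 bp with equal numbers of top peaks. With a −log10 q of at least 5 it was 876 bp and no longer free of overlap (exact permutation p = 1.0), and without library 1 of day 3 it was 452 bp. On day 10 the peaks of library 1 lay in a second stretch, from 143464553 to 143465367, outside the gene and nearer to Gm33663, and stood at or below the 2.5th percentile of −log10 q. The stretch at the gene itself, from 143460500 to 143461812, had no H3K4me3 peak in library 1 of day 0 or day 10. RUNX2 covered 360 bp in library 1 and 885 bp in library 2 of day 3, all of it in the stretch at the gene, with summits 46 bp apart, the widest gap of the set.

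The INK4 inhibitors of the set, Cdkn2a and Cdkn2c, had long covered lengths, with day 3 H3K4me3 means of 7925 and 8364 bp. The INK4 genes outside the set, Cdkn2b and Cdkn2d, had means of 4459 and 3633.5 bp that day. Their spans were shorter, at 4744 and 2963 bp beside 20147 bp for Cdkn2a and 5881 bp for Cdkn2c. Of the Cdkn2c length, 2169 and 1935 bp on day 3 lay in a stretch at an end of 9630013D21Rik. These lengths therefore do not rank the genes by level of the mark. Cdkn2a (chromosome 4, 89274473 to 89294619) makes 2 proteins from different first exons, the INK4 inhibitor p16 and ARF, which acts on the p53 pathway. Its 2 annotated starts are shown because both were under H3K4me3 in all 6 lists. Both are on the minus strand, the p16-side window at chr4:89282143-89282442 and the ARF-side window at chr4:89294570-89294869, and neither holds a motif match.

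Cdkn2a p16-side start: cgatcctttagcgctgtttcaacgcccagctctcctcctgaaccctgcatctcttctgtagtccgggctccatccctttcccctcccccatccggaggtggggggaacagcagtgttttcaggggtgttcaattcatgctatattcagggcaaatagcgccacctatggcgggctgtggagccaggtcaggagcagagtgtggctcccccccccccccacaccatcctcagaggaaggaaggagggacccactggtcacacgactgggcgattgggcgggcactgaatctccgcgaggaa

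Cdkn2a ARF-side start: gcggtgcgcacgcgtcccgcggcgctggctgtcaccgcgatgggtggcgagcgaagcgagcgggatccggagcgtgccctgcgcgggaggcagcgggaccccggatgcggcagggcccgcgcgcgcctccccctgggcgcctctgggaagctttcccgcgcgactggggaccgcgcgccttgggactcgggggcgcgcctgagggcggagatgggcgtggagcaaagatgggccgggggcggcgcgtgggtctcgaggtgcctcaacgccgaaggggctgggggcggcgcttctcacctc

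The p16-side window was under H3K4me3 for 300 and 80 of 300 bases on day 0, 300 and 300 bases on day 3, and 183 and 300 bases on day 10. The ARF-side window was covered for all 300 bases in all 6 lists. RUNX2 covered 171 and 300 bases of the p16-side window and 138 and 300 bases of the ARF-side window in libraries 1 and 2 of day 3. The ARF-side stretch, from 89292344 to 89297545, also holds an end of Gm12610, a long non-coding RNA gene, and in 9 of its 13 peaks the summit was nearer to that gene. Over the whole window RUNX2 covered 4450 and 6854 bp on day 3. H3K4me3 covered 3770 and 7247 bp on day 0, 8446 and 7404 bp on day 3, and 3675 and 7770 bp on day 10. Day 3 lay just above day 0 without overlap (means of 7925 ± 737 and 5508.5 ± 2458.6 bp, SD, n = 2 each; exact permutation p = 0.333), and the day 0 libraries differed from each other by more than the means did. The difference of 2416.5 bp was 678 bp without library 1 of day 0, 4155 bp without library 2 of day 0, and 108 bp within 1 kb of the gene ends, where the days overlapped (exact permutation p = 1.0).

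Cdkn2c (chromosome 4, 109660876 to 109666756) encodes p18, and its 2 annotated starts lay in a single stretch from 109660769 to 109668079 that was in all 6 H3K4me3 lists and both RUNX2 lists of day 3. RUNX2 covered 4055 and 7587 bp of the window on day 3. H3K4me3 covered 4959 and 5161 bp on day 0, 8859 and 7869 bp on day 3, and 5154 and 9241 bp on day 10. The day 0 libraries were close to each other here, at 5060 ± 143 bp, and both day 3 libraries lay above them, at 8364 ± 700 bp (SD, n = 2 each; exact permutation p = 0.333). A further stretch at an end of 9630013D21Rik was also in all of these lists.

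The 226 peaks fell into 34 stretches once overlapping peaks of all lists were joined. Of these, 16 had a peak in all 6 H3K4me3 lists, and each of those 16 had RUNX2 in both libraries of day 3. RUNX2 was in both day 3 libraries at 19 stretches, and the other 3 were the outer stretch of Ccnd1, the stretch within Cdk6 and the one at the gene end of Cdkn1c. No stretch had RUNX2 without H3K4me3 in some list. An own end or annotated start of the gene lay in 11 stretches.

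**Figure D4:**
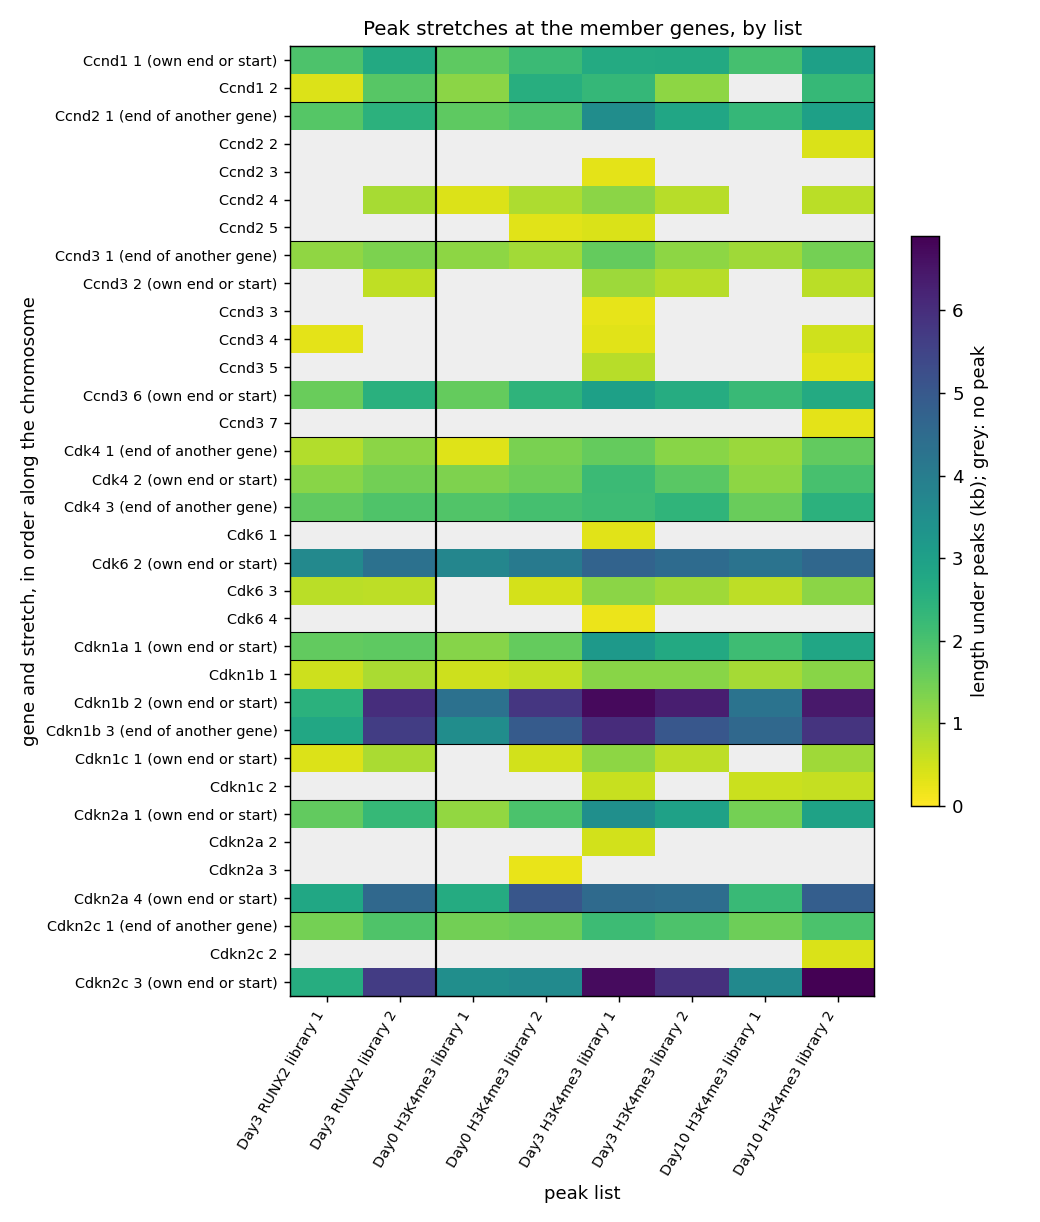
Length under peaks in kb (colour, grey for no peak) of each of the 34 stretches (rows, by gene and in order along the chromosome) in each list (columns), RUNX2 of day 3 left of the line and H3K4me3 by day to its right. The 16 rows filled in every H3K4me3 column are also filled in both RUNX2 columns, and the rows with peaks in 1 or 2 lists are mostly those of library 1 of day 3 or library 2 of day 10.

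Where RUNX2 peaks of both day 3 libraries overlapped, 24 common regions lay at the 10 genes, and 24 of 24 overlapped an H3K4me3 region common to both day 3 libraries (exact binomial 95% interval 85.8 to 100%, covering counting error only). Over all 17401 common RUNX2 regions, 97.6% did (97.4 to 97.8%). At Cdkn1b, Cdkn2a and Cdkn2c some regions were parts of the same library 2 peak. The intervals nevertheless take the common regions as independent. Of the bases of these regions, 99.0% at the 10 genes and 96.1% over all regions were under H3K4me3. Their median width was 1275 bp at the 10 genes and 1014 bp over all. Taking the RUNX2 peaks of library 1 alone, 96% of those at the 10 genes overlapped H3K4me3, and of library 2 alone, 96.3%. At the 20 regions with 1 summit in each RUNX2 library, 13 summits were on the same base and 18 within 10 bp, with a largest gap of 46 bp. The H3K4me3 summits of the same day were within 10 bp of each other in 1 of 22 regions at these genes, at a median gap of 101 bp, beside 90 bp over all regions.

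The covered lengths of the 10 genes were large beside those of marked genes in general. On day 3 their median of mean H3K4me3 covered length was 5708 bp, beside 2162 bp over the 14071 genes marked that day, and 9 of 10 lay above that value. For RUNX2 on day 3 the medians were 3954.5 and 1698 bp (13362 genes), with 8 of 10 above. Windows differ in length between genes and hold ends of other genes, so this is a description of the windows. RUNX2 covered more in library 2 than in library 1 at 10 of 10 genes, as at 88.8% of all genes marked in both.

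Motif matches were about as frequent in the promoter windows of these genes as in all windows. Of all 32851 promoter windows, 22.4% held at least 1 match and 2.86% held 2 or more. Of 11 windows of 7 genes of the set, 2 held a match (18.2%), the distal start of Ccnd3 and Cdk4. A match is a string of letters and its lack in a window says nothing of binding elsewhere in the peak. Ccnd1, Ccnd2 and Cdkn1c were not in the promoter table.

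The partners of these genes at the G1/S step were marked as uniformly. The list held 27 genes, among them the E and A cyclins with Cdk2, the retinoblastoma family, the E2F and DP factors, the other INK4 genes Cdkn2b and Cdkn2d, the CDK-activating kinase and ubiquitin ligase subunits that degrade inhibitors. H3K4me3 was present at 27 of 27 in all 6 lists, and RUNX2 at 27 of 27 in each library of day 3 and at none on days 0 and 10. All 27 partners had peaks in the same lists as 9 of the 10 genes, and so did 11917 of all genes (54.5%), so no partner was more alike than another. The list pattern of Cdkn1c, with no H3K4me3 in library 1 of day 0, was shared by 751 genes (3.43%). H3K4me3 covered length on day 3 lay above day 0 without overlap at 20 of 27 partners. On day 10 it lay below day 3 without overlap at 9 of 27, namely Ccne2, Cdk2, Ccna2, Rbl2, E2f4, Tfdp1, Ccnh, Myc and Trp53, and above day 0 at 3 of 27, Rb1, Tfdp1 and Ccnh. Among genes with a peak on either day of the comparison, the shares for these 3 counts were 75.4%, 19.2% and 21.1%. Whether the 9 of 27 differs from the 0 of 10 was not tested.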

How the data were processed

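Peak lists from 12 of 14 samples were used, 2 libraries for each of 2 antibodies and 3 days. The submitters' processing notes list FastQC, Trim Galore, MACS2 and HISAT2 2.2.0 without roles, and the labels give reads of 75 bp. Settings and any use of the inputs as control: not given in the sources used here. Each deposited list is named for 1 library, so peaks were called per library. The deposited narrowPeak columns hold the authors' score, fold enrichment (a ratio), −log10 p and −log10 q, which were used only to rank or filter peaks within a list. The notes name GRCm39, but 37.9 to 70.1% of H3K4me3 summits lay within 1 kb of a gene end of a GRCm38.p6 RefSeq table, and 6.12 to 7.98% after a 20 kb shift, so the lists were read as GRCm38.

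Overlapping peaks were merged in each list (Python with pandas and numpy). A gene was marked when both libraries of a day had a peak overlapping its window by at least 1 bp, and it gained or lost a peak when both libraries of one day and neither of the other had one. Covered lengths were compared by exact two-sided permutation over libraries, with no adjustment, as none could pass. Background percentages are the same counts over the protein-coding genes that could be called: all of them for marking, those with no peak on the earlier day for gains, those marked on it for losses, and those with a peak on either day for covered length. The rules were checked on simulated peaks. All 10 genes are described, and partner genes are named where their mark differed between days. Genes, lists and tests were chosen with earlier results of these data known. Alternatives were the window, a −log10 q of at least 5, the summit, equal list lengths, each library left out, a replicate block, and, chosen after seeing the data, library 2 alone and peaks nearer to another gene left out.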

Additional observations from a re-analysis of the deposited data

How the results depend on the processing

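H3K4me3 marking on day 10, at 10 genes, was 9 with gene spans without extension, with a −log10 q of at least 5 and with equal numbers of peaks, and 10 by the summit. On day 3, also at 10, it was 9 with that q and with equal numbers of peaks. With windows of 1 kb either side of the gene ends, H3K4me3 marked 6 genes on day 0 (beside 9), 9 on day 3 and 6 on day 10. RUNX2 marked 7 on day 3 (beside 10), and 7 had more RUNX2 on day 3 than on day 0, beside 10. In these windows 2 genes, Ccnd2 and Ccnd3, gained an H3K4me3 peak by day 3 against day 0. Both had day 0 peaks farther from their ends, which the narrower window leaves out. Shares over all genes are not given for these windows or for the other alternatives, except where printed. The counts in this section therefore show how far the calls move with processing, and are not results about these genes beside others. With equal numbers of top peaks, which leaves each RUNX2 list as short as the shortest, RUNX2 marked 0 genes on day 3, with 0 gained and 0 higher in day 3 against day 0, and 0 lost and 0 lower in day 10 against day 3.

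Higher H3K4me3 on day 3 than on day 0, at 9 genes, ranged from 7 to 10 over all alternatives. Lower H3K4me3 on day 10 than on day 3 was 2 with gene spans without extension, 2 with gene ends, 1 with equal numbers of peaks and 2 with peaks nearer to another gene left out, beside 0. Higher H3K4me3 on day 10 than on day 0 was 1 with gene ends, beside 3. In library 2 alone, 9 genes were higher and 1 was lower on day 3 than on day 0, and 83.4% of all genes with a peak in both lists were higher. In the same library, 10 were higher on day 10 than on day 3 (77.0% of such genes) and 10 than on day 0 (93.0%).

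Leaving out 1 library gave ranges. The count lower on day 10 than on day 3 ran from 0 to 10 (7 without library 2 of day 3, 10 without library 2 of day 10), and the count higher from 0 to 3 (3 without library 1 of day 10). Higher on day 10 than on day 0 ran from 3 to 10 (8 without library 2 of day 0, 10 without library 1 of day 10), and lower from 0 to 2 (2 without library 2 of day 10). Gains by day 3 and by day 10 against day 0 ran from 0 to 1, the 1 being Cdkn1c without library 2 of day 0. The day 3 minus day 0 difference at Ccnd1, 589 bp, was −1177 bp with equal numbers of peaks and ran from −349 bp (without library 1 of day 0) to 1527 bp (without library 2 of day 0). Within 1 kb of the gene ends, no list had a peak at Cdkn1a, so the same difference was 0 bp there, beside 1487 bp. At Cdk6 the difference was 189 bp, beside 1804.5 bp. Without library 1 of day 3 it was 979.5 bp at Ccnd2, beside 1896 bp, and 1476.5 bp at Ccnd3, beside 2640.5 bp, and without library 1 of day 0 it was 1439 bp at Cdkn1b, beside 2852 bp. The cause of these shifts was otherwise not tested.

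In the replicate block, with libraries of the same number paired, 8 genes were higher on day 10 than on day 0, beside 3, and every other count of genes gained, lost, higher or lower was as without the block. Deviations of same-numbered H3K4me3 libraries from their day means had a correlation of 0.3 across genes between days 0 and 10. It was 0.02 between days 0 and 3 and −0.031 between days 3 and 10. The main counts use no block, and whether same-numbered libraries of days 0 and 10 belong together was not tested. With peaks nearer to another gene left out, H3K4me3 marked 8 genes on day 0 (not Cdk6 or Cdkn1c), 9 on day 3 (not Cdk6) and 7 on day 10 (not Ccnd2, Cdk6 or Cdkn1c), and RUNX2 marked 9 on day 3 (not Ccnd2). With no read depth, a missing peak limits nothing about the level of the mark.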
